A study of Mus musculus with 2 samples.

Results

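The EGF receptor and MET axis was followed through 10 genes of the 20211 gene symbols measured in mouse perivascular cells (PCs). The 10 genes were taken by name: the receptors Egfr, Erbb2, Erbb3, Erbb4 and Met, and the ligands Hgf, Hbegf, Areg, Ereg and Tgfa. The 2 RNA-seq libraries came from primary aortic PCs of C57BL/6 mice, 1 from wild type (WT) cells and 1 from Kai1 KO cells, called Kai1-/- here. Both cultures were grown in DMEM with 10% FBS by the labels, and the study's methods give a higher serum share for these primary cells. The study compared the libraries to find what changes in PCs that lack KAI1. The values are RPKM, reads scaled by transcript length and by library size, so levels of different genes can be set side by side. There are no replicates, so no difference below has a replicate check, and genotype cannot be told apart from the animal, the culture or the preparation of each library.

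The EGF receptor (EGFR, encoded by Egfr) is a tyrosine kinase at the cell surface that pairs with itself or with its relatives when a ligand binds, and passes the signal on through RAS and ERK. Its ligands are made as membrane proteins, and metalloproteases such as ADAM17 cut them free. MET is the receptor of hepatocyte growth factor (HGF), a protein that mesenchymal cells secrete and that drives movement and growth of neighbouring cells. KAI1 (CD82) is a tetraspanin, a membrane protein that gathers other proteins into clusters, and in other cell types it is known to associate with EGFR and to dampen signals of EGFR and MET.

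The targeted gene Cd82 measured 12.8 RPKM in WT PCs and 2.62 RPKM in Kai1-/- PCs, which is 20.5% of the WT level. From the steps in which low RPKM values fell, the libraries held about 29400000 reads (WT) and 26700000 reads (Kai1-/-), and these estimates gave the counting intervals below. The intervals cover counting error only. The 4 Y-linked genes above 0 in the WT library were all listed at 0 in the Kai1-/- library, so sex and genotype cannot be told apart. Of the markers of the labelled cell type, Pdgfrb (44.7 and 31.6 RPKM in WT and Kai1-/-) and Acta2 (3823 and 2580) were high in both libraries. The summed level of 10 mural markers, mostly Acta2, was 4646 in WT and 2977 in Kai1-/-. Of the 10, 9 were lower in Kai1-/-, and Rgs5 was near 0 (0.063 and 0.233). Of the 7 with a mean RPKM of 1 or more, 4 were more than 2-fold lower in Kai1-/-, beside 7.81% of all genes at this level. These were Tagln (632.5 and 306.7), Cnn1 (119.6 and 49.25), Myh11 (2.96 and 0.346) and Mcam (4.90 and 0.264). Myh11 and Mcam reached this mean only through WT. Fewer cells of a type and less RNA per cell cannot be told apart in such bulk libraries.

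In these PCs Hbegf, the gene of heparin-binding EGF-like growth factor, was the member with the highest level. Its RPKM was 27.9 in WT and 17.5 in Kai1-/-. In WT PCs it was followed by Egfr (4.08), Erbb2 (3.90), Ereg (3.70), Met (1.43), Hgf (0.806), Tgfa (0.101) and Erbb3 (0.0177). The 95% exact Poisson intervals of Egfr, Erbb2 and Ereg in WT PCs overlapped, at 3.85 to 4.32, 3.58 to 4.24 and 3.36 to 4.07. In Kai1-/- PCs the order was Hbegf, Egfr (7.91), Erbb2 (4.36), Met (2.89), Hgf (2.61), Ereg (0.779) and Tgfa (0.539). There the intervals of Met (2.64 to 3.15) and Hgf (2.24 to 3.03) overlapped, as did those of Ereg (0.621 to 0.97) and Tgfa (0.4 to 0.706). Overlap of such intervals is a description and not a test of a difference. Erbb4 and Areg were listed at 0 in both libraries. Thus Ereg stood above Met and Hgf in WT PCs and below them in Kai1-/- PCs.

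**Figure D1:**
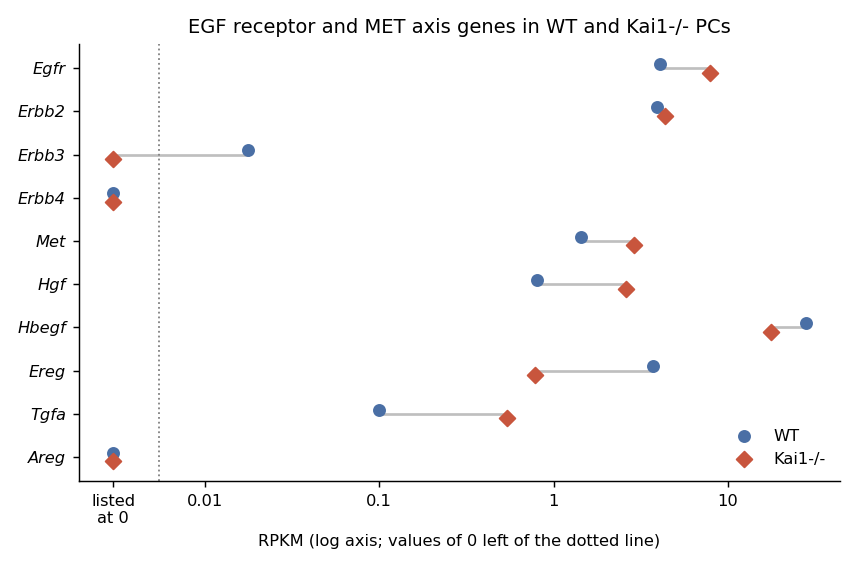
RPKM of the 10 genes (log axis) in the WT library (circles) and the Kai1-/- library (diamonds), 1 library each, with values of 0 drawn left of the dotted line. Hbegf lies highest in both libraries, the diamonds of Egfr, Met, Hgf and Tgfa lie to the right of their circles, those of Hbegf and Ereg lie to the left, and Erbb4 and Areg are at 0 in both.

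A 2-fold change on the scale of log2(RPKM + 0.1) was counted only where the RPKM averaged 1 or more over both libraries, a level reached by 6 of the 10 members. Of these 6, 1 (Hgf) was more than 2-fold higher in Kai1-/- PCs and 1 (Ereg) more than 2-fold lower. Of all 10068 genes at this level, 7.98% were more than 2-fold higher and 7.81% more than 2-fold lower. Over the 6 members the log2 ratio of Kai1-/- to WT had a median of 0.55, with a median of 0.08 over all genes at this level. Both genes past the line reached a mean of 1 only through the library in which they were higher, Hgf through Kai1-/- and Ereg through WT, and the counts over the 6 genes are a description. Over all 10 members, 5 had a higher and 3 a lower RPKM in Kai1-/-, and 2 were at 0 in both.

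**Figure D2:**
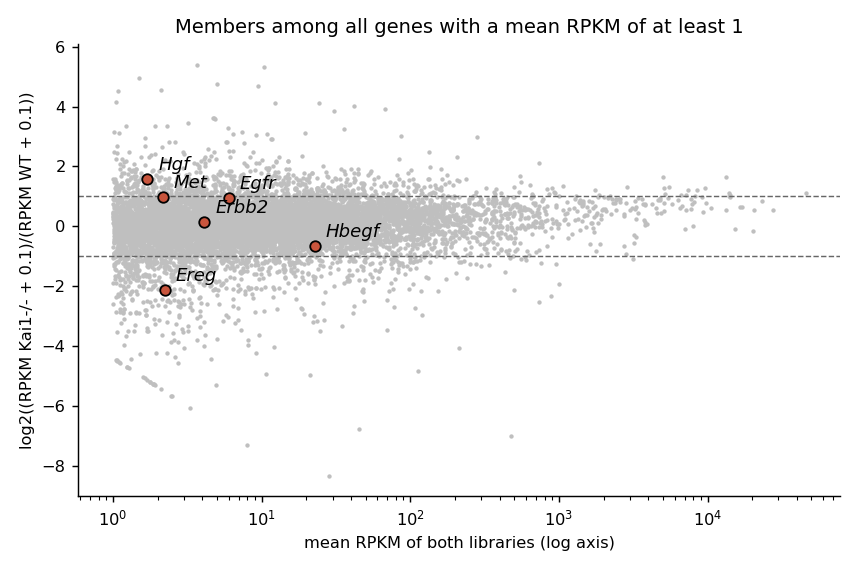
Log2 ratio of Kai1-/- to WT against the mean RPKM (log axis) of the 10068 genes tested (grey), with 6 members marked. Hgf lies above the upper dashed line of a 2-fold change, Met (0.97) and Egfr (0.94) just under it, Erbb2 (0.16) and Hbegf (-0.67) between the lines, and Ereg (-2.11) below the lower one.

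Among the receptors, Egfr and Met were about 2-fold higher in the Kai1-/- library. Egfr is found on chromosome 11 (16652206 to 16818161, mouse build NCBI37, mm9). It stood at 4.08 RPKM in WT and 7.91 RPKM in Kai1-/-, a fold of 1.94, and the estimated 1200 and 2110 reads gave a 95% interval of 1.80 to 2.08. Only 9.3% of all genes tested had a higher log2 ratio. Met is found on chromosome 6 (17413800 to 17523980), and it measured 1.43 RPKM in WT and 2.89 RPKM in Kai1-/-. This is a fold of 2.02 with a 95% interval of 1.74 to 2.35 from about 278 and 509 reads, and 8.6% of all genes tested had a higher log2 ratio. Both receptors thus sat at the 2-fold line, within counting error of it. With 0.1 added to each RPKM their log2 ratios were 0.94 (Egfr) and 0.97 (Met), short of the line, and with 0.01 added that of Met was 1.01, past it. With both libraries scaled to Gapdh they were 0.45 (Egfr) and 0.49 (Met), still higher in Kai1-/-. The level of Egfr was 2.86 times that of Met in WT PCs and 2.74 times in Kai1-/- PCs.

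Erbb2 encodes the family member that has no known ligand of its own and works as a partner of the others. It is found on chromosome 11 (98273784 to 98299030), and its level was 3.90 RPKM in WT and 4.36 in Kai1-/-. The fold was 1.12 with an interval of 0.99 to 1.26, which includes 1, and with both libraries scaled to Gapdh the log2 ratio changed sign, from 0.16 to -0.33. Egfr and Erbb2 were near equal in WT PCs, with a ratio of their levels of 1.05, and in Kai1-/- PCs the ratio was 1.81. Erbb3, whose protein has an impaired kinase and binds neuregulins, had an RPKM of 0.0177 in WT, about 3 reads, and was listed at 0 in Kai1-/-, where 3 reads would correspond to 0.0193. The counting interval of its ratio reached from 0 to 2.67, so no difference was detectable at this depth. Erbb4, the other neuregulin receptor, was listed at 0 in both libraries, where 3 reads would correspond to an RPKM of 0.00862 in WT and 0.0095 in Kai1-/-. Together the 4 receptors of the EGF family summed to 7.99 RPKM in WT and 12.3 in Kai1-/-. Egfr made up 51.0% of this sum in WT and 64.5% in Kai1-/-, and Erbb2 made up 48.8% and 35.5%.

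**Figure D3:**
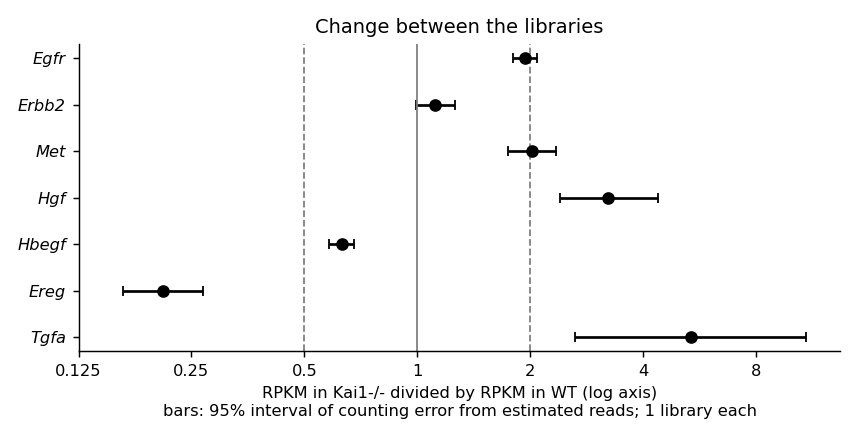
RPKM in Kai1-/- divided by RPKM in WT (log axis) for the 7 members with reads in both libraries, with 95% intervals of counting error from the estimated reads and dashed lines at a 2-fold change. The intervals of Egfr and Met include 2, that of Erbb2 includes 1, those of Hgf and Tgfa lie above 2 and that of Ereg lies below 0.5.

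Hgf, the gene of the ligand of MET, was higher in the Kai1-/- library, as was its receptor. Hgf is found on chromosome 5 (16059368 to 16125257). Its level in RPKM was 0.806 in WT and 2.61 in Kai1-/-, from about 61 and 178 reads. The fold was 3.23 with a 95% interval of 2.40 to 4.39, and the log2 ratio was 1.58. Of all genes tested, 2.2% had a higher log2 ratio. The level of Met was 1.77 times that of Hgf in WT PCs and 1.11 times in Kai1-/- PCs. With 1 RPKM added to each value the log2 ratio of Hgf was 0.998, just short of the 2-fold line, and scaled to Gapdh it was 1.10.

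Tgfa encodes transforming growth factor alpha, a ligand of EGFR. The gene is on chromosome 6 (86145420 to 86225151). Its level in RPKM was 0.101 in WT and 0.539 in Kai1-/-, from about 11 and 51 reads. The fold was 5.36 with a wide interval, from 2.63 to 10.9, and the log2 ratio was 1.67. With 1 RPKM added to each value the log2 ratio was 0.48, short of the 2-fold line. Its mean RPKM was below 1, and of the 2666 genes with a mean RPKM from 0.1 to below 1, 12.5% were past the 2-fold line upward and 30.7% downward in Kai1-/-. Even in Kai1-/- PCs the level of Hbegf was 32.5 times that of Tgfa.

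The starts of Egfr, Met, Hgf and Tgfa, the 4 members whose RPKM was higher by about 2-fold or more in Kai1-/-, are printed so that they can be read beside these values. The RefSeq table of promoters, made on the build GRCm38.p6, held 7 of the 10 members, and Erbb3, Hbegf and Ereg were not among them. Each sequence runs from 250 bases before to 50 bases after the RefSeq start, matched 1 place on its chromosome in NCBI37, and is given with its NCBI37 position. Capitals mark matches on either strand to 4 motifs. The first is the AP-1 motif, with the letters TGACTCA. Another is the cAMP response element (CRE), with the letters TGACGTCA. The GC box was searched as GGGCGG, and the TATA box was searched as TATAAA.
Egfr promoter, chr11:16651956-16652255, plus strand: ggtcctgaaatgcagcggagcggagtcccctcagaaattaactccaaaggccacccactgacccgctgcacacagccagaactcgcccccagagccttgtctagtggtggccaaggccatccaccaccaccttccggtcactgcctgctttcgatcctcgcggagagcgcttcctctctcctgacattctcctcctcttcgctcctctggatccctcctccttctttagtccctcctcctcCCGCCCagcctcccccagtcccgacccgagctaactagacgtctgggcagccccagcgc
Met promoter, chr6:17413707-17414006, plus strand: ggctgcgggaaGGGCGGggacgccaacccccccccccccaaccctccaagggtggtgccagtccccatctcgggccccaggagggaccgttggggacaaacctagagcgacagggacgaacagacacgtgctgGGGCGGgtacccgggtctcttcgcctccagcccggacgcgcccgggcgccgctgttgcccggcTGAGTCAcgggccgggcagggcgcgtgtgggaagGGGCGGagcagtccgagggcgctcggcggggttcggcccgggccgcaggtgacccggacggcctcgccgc
Hgf promoter, chr5:16059063-16059362, plus strand: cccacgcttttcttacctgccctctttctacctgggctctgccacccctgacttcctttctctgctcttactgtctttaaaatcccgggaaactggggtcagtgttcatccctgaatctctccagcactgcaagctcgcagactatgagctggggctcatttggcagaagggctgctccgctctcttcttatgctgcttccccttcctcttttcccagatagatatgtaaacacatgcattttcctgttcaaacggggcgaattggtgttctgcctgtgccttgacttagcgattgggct
Tgfa promoter, chr6:86144966-86145265, plus strand: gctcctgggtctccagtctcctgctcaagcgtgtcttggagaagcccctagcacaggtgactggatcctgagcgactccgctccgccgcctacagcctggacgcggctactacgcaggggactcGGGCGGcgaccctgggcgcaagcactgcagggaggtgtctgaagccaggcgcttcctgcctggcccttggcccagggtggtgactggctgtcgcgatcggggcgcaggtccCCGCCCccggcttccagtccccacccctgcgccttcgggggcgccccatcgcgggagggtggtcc

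The Met sequence held the AP-1 letters once, on the opposite strand and beginning 54 bases before the start, and 3 GC boxes. Of 32544 promoters of the same length, 5.2% held the AP-1 letters and 35.9% a GC box. The Egfr sequence held 1 GC box and that of Tgfa 2, and the Hgf sequence held none of the 4 motifs. Hgf had a second promoter in the table, not printed, which held none either. The promoter of Areg, a member listed at 0, held CRE letters, present in 1.8% of promoters, and a TATA box, present in 13.6%, that began 61 and 31 bases before its start. It also held GC boxes that began 52 bases before and 37 bases after its start. The promoters of Erbb2 and Erbb4 held none of the 4 motifs. A match of letters is a description of the sequence and not a site of binding.

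The ligands of EGFR with the highest levels were lower in the Kai1-/- library. Ereg encodes epiregulin, which binds EGFR and ERBB4, and the gene is on chromosome 5 (91503643 to 91522675). Its level in RPKM was 3.70 in WT and 0.779 in Kai1-/-, from about 429 and 82 reads. The RPKM in WT was 4.75 times that in Kai1-/-, the ratio of Kai1-/- to WT had a 95% interval of 0.165 to 0.268, and the log2 ratio was -2.11. Only 2.0% of all genes tested had a lower log2 ratio. Ereg stayed more than 2-fold lower in 7 of 7 recomputations, between -2.55 and -1.40. These reuse the same libraries, and summing repeated symbols could not change Ereg. Hbegf, whose protein binds EGFR and ERBB4, had 62.8% of its WT level in Kai1-/-, with an interval of the ratio from 0.581 to 0.678. Its log2 ratio was -0.67, short of the 2-fold line, and scaled to Gapdh it was -1.17, past it. Areg, the gene of amphiregulin, was listed at 0 in both libraries, where 3 reads would correspond to an RPKM of 0.101 in WT and 0.113 in Kai1-/-.

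Summed over Hbegf, Areg, Ereg and Tgfa, the EGFR ligands came to 31.7 RPKM in WT and 18.8 in Kai1-/-. Hbegf made up 88.0% of this sum in WT and 93.0% in Kai1-/-. The share of Ereg was 11.7% in WT and 4.14% in Kai1-/-, and that of Tgfa was 0.32% and 2.86%. The sum of the ligands was thus lower in Kai1-/- while the level of their receptor Egfr was higher, and the level of Hbegf was 6.83 times that of Egfr in WT and 2.21 times in Kai1-/-.

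**Figure D4:**
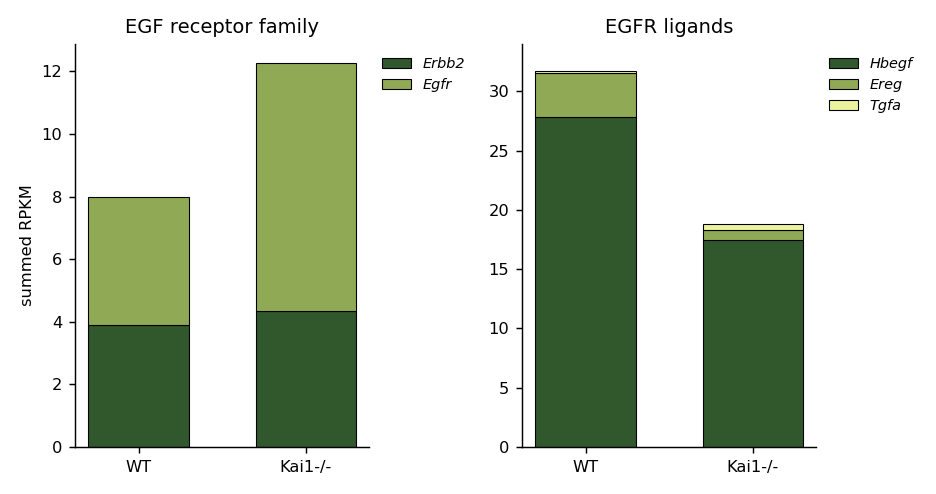
Summed RPKM of the EGF receptor family (left, Erbb2 and Egfr) and of the EGFR ligands (right, Hbegf, Ereg and Tgfa) in the WT and Kai1-/- libraries, with members near or at 0 not drawn. The receptor bar is 7.99 in WT and 12.3 in Kai1-/-, with the larger part of the difference in Egfr, and the ligand bar is 31.7 and 18.8, mostly Hbegf.

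Ereg and Areg are neighbours in a cluster of EGF-like ligand genes on chromosome 5 that also holds Epgn (epigen) and Btc (betacellulin), 2 genes named here after their values were seen. The 4 genes lie within 375.4 kilobases, from 91456490 to 91831939, in the order Epgn, Ereg, Areg and Btc, and 45965 bases separate Ereg from Areg. Epgn was listed at 0 in both libraries, like Areg. Btc stood at 0.7504 RPKM in WT and 0.168 in Kai1-/-, from about 57 and 12 reads, and the interval of its ratio was 0.114 to 0.439. Its mean RPKM was below 1, a level at which 30.7% of genes were more than 2-fold lower. The 2 genes of the cluster with reads were thus both lower in Kai1-/-, with ratios of 0.210 (Ereg) and 0.224 (Btc).

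The rest of the pathway was described with 6 lists of genes, 100 genes in all. Of the 78 tested, 7 were lower in Kai1-/- by more than 2-fold and 2 were higher, and the median log2 ratio was -0.12. Over all genes tested, 7.81% were lower and 7.98% higher, and the median was 0.08. Of the 7 other EGF family ligands, only the neuregulin gene Nrg1 reached a mean of 1, with an RPKM of 2.31 in WT and 3.03 in Kai1-/- and a log2 ratio of 0.38. Among 13 genes that activate HGF, restrain that activation or are related to MET, 4 were tested and 1 was past the 2-fold line. This was Plat, the gene of tissue plasminogen activator, a protease known for activating plasminogen, with an RPKM of 8.89 in WT and 26.1 in Kai1-/- (log2 ratio 1.54). Cd44, whose protein serves as a co-receptor of MET, had the highest level of this list, 35.7 in WT and 24.3 in Kai1-/-, a log2 ratio of -0.56.

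Of 12 genes that cut, carry or hold back the membrane-bound ligands, 10 were tested. Of these, 2 were more than 2-fold lower in Kai1-/-, beside 7.81% of all genes. They were Adam12, a metalloprotease that can release HB-EGF, from 5.56 in WT to 2.23 (log2 ratio -1.28), and Rhbdf2, a partner that carries ADAM17 to the cell surface, from 1.86 to 0.641 (-1.40). Rhbdf2 reached a mean of 1 only through WT, the library in which it was higher. Its relative Rhbdf1, named here after its values were seen, stood at 47.1 RPKM in WT and 52.7 in Kai1-/- (0.16). With 1 RPKM added to each value, only 1 gene of this list was past the line. Adam17 itself, named here after its values were seen, stood at 6.44 RPKM in WT and 6.23 in Kai1-/-, a ratio of 0.968 with an interval of 0.873 to 1.07. Timp3, an inhibitor of ADAM17, had the highest level of the list, with 497.8 in WT and 393.2 in Kai1-/- (log2 ratio -0.34).

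The 27 adaptors and signal relays, with GRB2 and ERK among them, were all tested, and 0 of them were past the 2-fold line. Their log2 ratios ran from -0.89 to 0.56, with a median of -0.12. Mapk3, the gene of ERK1, had the highest level, 156.1 in WT and 229.7 in Kai1-/-. With both libraries scaled to Gapdh, 6 of the 27 were more than 2-fold lower, as were 18.4% of all genes under that scaling.

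Of 23 genes that take the receptors down or feed back on their signal, 19 were tested. Of these, 3 were more than 2-fold lower and 0 higher in Kai1-/-, beside 7.81% lower and 7.98% higher among all genes. The 3 genes were Spry1, Spry2 and Spred1, which encode inhibitors of the RAS and ERK pathway. The level of Spry1 was 6.50 RPKM in WT and 1.19 in Kai1-/- (log2 ratio -2.35), that of Spry2 was 6.19 and 2.37 (-1.35), and that of Spred1 was 3.95 and 1.77 (-1.12). With 1 RPKM added to each value, 2 genes of this list were past the line. Of the related genes on the list, named here after their values were seen, Spred2 was short of the line (8.11 and 5.70, -0.50) and Spry4 had a mean RPKM below 1 (1.21 and 0.588, -0.93). The median of the list was -0.07, and of all 23 genes 15 had a lower and 8 a higher RPKM in Kai1-/-. Dusp4, a phosphatase that acts on ERK and the gene with the highest level, had 27.0 in WT and 24.9 in Kai1-/- (-0.12). The related Dusp5 (0.47) and Dusp6 (-0.07), also named after their values were seen, were not past the line.

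Of 18 transcripts known to be induced by ERK, 17 were tested. Past the 2-fold line, 2 were lower and 1 was higher in Kai1-/-, beside 7.81% lower and 7.98% higher among all genes. Ptgs2, the gene of cyclooxygenase 2, fell from 8.66 RPKM in WT to 2.20 (log2 ratio -1.93), and Dusp1, a phosphatase of MAP kinases, from 45.0 to 21.5 (-1.07). Etv4, an ETS family transcription factor, went from 2.80 to 9.36 (1.71). The related Etv5 (13.45 and 11.74, -0.19) and Etv1 (0.414 and 0.094, with a mean RPKM below 1), named here after their values were seen, were not higher. Ier3 had the highest level, 240.1 in WT and 285.3 in Kai1-/- (0.25). The median of the list was -0.22, and scaled to Gapdh 6 of the 17 were lower, beside the 18.4% of all genes. The members of this list thus did not move in 1 direction.

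**Figure D5:**
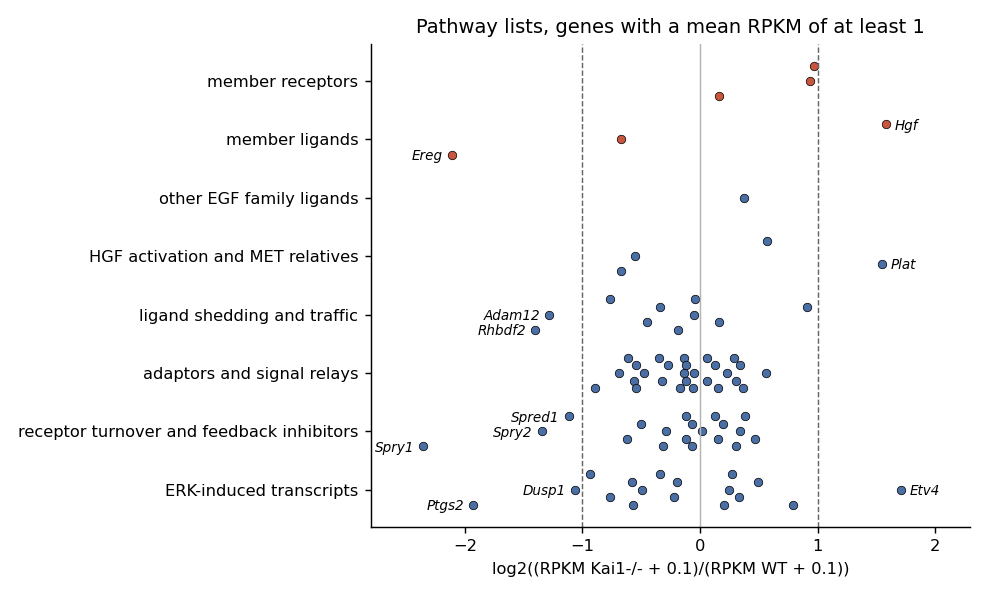
Log2 ratio of Kai1-/- to WT for the tested genes among the receptors and ligands followed here (red) and in 6 lists of the pathway (blue), 1 point a gene, with dashed lines at a 2-fold change and genes past them named. The 27 adaptors and relays all lie between the lines, and Spry1, Spry2 and Spred1 lie left of them.

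Markers of other cells also differed between the libraries, and their part in the values above was not tested. The summed level of 14 epithelial markers was 31.9 in WT and 97.8 in Kai1-/-, mostly Krt19 (29.3 and 91.3), with 4 lower and 5 higher in Kai1-/-. The 3 with a mean RPKM of 1 or more were Krt19, Esrp2 (1.42 and 3.21) and Pkp1 (0.315 and 2.24). All 3 were more than 2-fold higher in Kai1-/-, beside 7.98% of all genes at this level, and Pkp1 reached this mean only through Kai1-/-. Krt14 measured 0.0694 and 0.641, and Dsp 0.065 and 0.076. The 4 lower were Cdh1 (0.593 and 0.391), Trp63 (0.089 and 0), Krt8 (0.021 and 0) and Krt18 (0.028 and 0). Epcam, Krt5, Cldn4, Esrp1 and Grhl2 were listed at 0 in both. Of 10 endothelial markers, 7 were above 0 in WT, with a sum of 1.29, and all 10 were at 0 in Kai1-/-. The 11 macrophage markers summed to 37.4 in WT and 18.4 in Kai1-/-, with 8 lower and 2 higher in Kai1-/-. Of the 4 tested, Csf1r (11.7 and 2.66), Tyrobp (10.4 and 2.37) and Fcer1g (11.35 and 2.47) were more than 2-fold lower. Cd14, also tested, was more than 2-fold higher (1.98 and 10.3). Ptprc, the gene of CD45, was near 0 in both (0.041 and 0.007). The 10 Schwann cell and melanocyte markers, cells in which Erbb3 is known to act, summed to 15.0 and 4.86, with 5 lower and 2 higher in Kai1-/-. Most of the sum was S100b (13.7 and 3.18), and Sox10 stood at 0.013 in WT and 0 in Kai1-/-. The 2 higher were Mitf (0.339 and 0.474) and Pmel (0.648 and 1.125). The 10 fibroblast markers summed to 3443 in WT and 1870 in Kai1-/-, with 9 of 10 lower in Kai1-/-.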

How the data were processed

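RNA of primary mouse PCs was sequenced, 1 library from WT and 1 from Kai1-/- cells. Alignment by the authors was to mm9 (NCBI37) with TopHat 2.0.9 and Bowtie. The authors deposited 1 RPKM value for each RefSeq gene in each library. Whether a scaling between libraries went into these values, and the number of reads, are not given in the sources used here.

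Of 20462 rows, 38 had no symbol and were dropped. For 153 symbols on several rows, none of them a member, the mean was used. Log2 ratios of Kai1-/- to WT were taken with a pseudocount of 0.1 RPKM, so changes of low genes are understated. No p-value was computed, since each genotype had 1 library. The members and lists were chosen with earlier results of these data known. All members are named, and of each pathway list the genes past 2-fold and the gene with the highest mean. One gene, Hras, was found under its older symbol.

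Reads were estimated from low RPKM values of genes with 1 annotated transcript of over 800 bases (GENCODE M1). With fragment lengths of 190 (WT) and 200 bases (Kai1-/-), 80.4% and 79.3% of the low values were whole reads to within 0.15. The reads of a gene were computed with its longest coding transcript and are approximate, more so for Egfr, Erbb2 and Met, which have several transcripts. Intervals are 95% exact (Clopper-Pearson or Poisson). On simulated data with 200 of 5776 genes changed 4-fold, 200 were recovered. The changed genes had at least 1 RPKM in WT and only counting error was simulated. This checks the computation and does not bear on changes near 2-fold or on lower levels. Alternatives were other pseudocounts, scalings, filters and sums of repeated symbols. Python 3.11.15, numpy 2.4.6, pandas 2.3.3, scipy 1.17.1 and matplotlib 3.10.9 were used.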

Additional observations from a re-analysis of the deposited data

How the results depend on the processing

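Of 55 recomputed log2 ratios of members, 42 stayed within the counting interval of the reported value, 13 moved further and 1 changed sign, that of Erbb2 scaled to Gapdh (-0.33). Summing repeated symbols could not change a member, since none is on several rows, and its values count among the 42. The interval of Erbb3 had no lower end, so its move from -0.235 to -1.47 with 0.01 RPKM counts there too. With a pseudocount of 1 RPKM, 0 members were more than 2-fold higher and the median of the members was 0.40. With 0.01 RPKM, or with no pseudocount, an alternative added after seeing the data, 2 members were higher, Met and Hgf. With the upper quartile made equal the median was 0.42, and that of all genes -0.045. Scaled to Gapdh, whose own log2 ratio was 0.50, 2 members (Ereg and Hbegf) were lower, their median was 0.057, 1856 of all genes were lower and 278 higher, and the median of all genes went from 0.08 to -0.41. Without a filter, 2 members were higher (Hgf and Tgfa), the median of the members was 0.079, and 1878 of all genes were lower and 1205 higher. With a mean RPKM of at least 5, which leaves Egfr and Hbegf, 0 members were lower and 0 higher, their median was 0.14, and 350 of all genes were lower and 511 higher. No paired analysis was possible because there was only 1 library of each genotype, which also left no library to leave out. Few reads limit Tgfa (about 11 in WT) and Erbb3 (about 3), and Areg and Erbb4 had no reads in either library.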
